A study of Mus musculus with 8 samples.

Results

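Integrins and laminins, the receptors and ligands of cell attachment to the basement membrane, were followed over 8 mouse tumours. The genes were chosen by symbol: those that begin with Itga, Itgb, Lama, Lamb or Lamc and a digit, together with Itgad, Itgae, Itgal, Itgam, Itgav and Itgax, and where several probe sets carry that symbol alone, the brightest on average was used. This gave 39 of the 22180 genes on the array: 26 integrin subunits, 10 laminin chains and 3 genes that carry an integrin symbol but encode proteins binding an integrin tail (Itgb1bp1, Itgb1bp2 and Itgb3bp). Each tumour was hybridised to 1 whole-transcript array. The tumours arose from mouse neural crest cells transduced with N-Myc, the transcription factor amplified in high-risk neuroblastoma, and the injected cells were a mixture of p53+/- and p53-/- cells. About 10000 cells were placed under the skin 48 hours after infection, in nude mice, which lack mature T cells, or in C57Bl/6 mice, and the tumours were removed after about 50 days. All 8 tumours carry this one description, with no host, clone or animal given for each, so they form 1 group and none is a control. As nothing states that they came from separate animals or cultures, every p-value below applies to these samples only. Those from limma set a mean against a background level, relative to the spread between samples. Those from permutation set the pairing of levels over the tumours against all other pairings.

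Integrins are pairs of an alpha and a beta subunit that span the membrane, and the pair decides which matrix protein or cell surface ligand is bound. Laminins are cross-shaped trimers of an alpha, a beta and a gamma chain, and they form the first network of a basement membrane, on which nidogen, perlecan and type IV collagen assemble. Neural crest cells migrate on laminin and fibronectin with beta1 and alpha V integrins, and Schwann cells, vessels, muscle fibres and leukocytes each carry characteristic subunits and chains.

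Upstream sequences were available in RefSeq (GRCm38.p6) for 25 of the 39 members, in 28 windows of 250 bases that end just before an annotated transcription start. Those shown belong to the members past the spread threshold used below that had a window (Itgav, Itga1 and Itgb8), to Itgb5, whose level followed that of Itgav most closely, and to Itgam, the leukocyte subunit with the widest range. Capitals mark matches, on either strand, to 5 motifs. These were GAGGAA (1 form of the sites for Ets factors, longer than their GGAA core), GGGCGG (the GC box) and CACGTG (the E-box of the Myc type). The others were TATAAA (the motif of core promoters) and ACAAAG (a motif of Sox factors). GGAA alone was not counted. Matches of different motifs may overlap.
Itgav (chr2:83724147-83724396, plus strand): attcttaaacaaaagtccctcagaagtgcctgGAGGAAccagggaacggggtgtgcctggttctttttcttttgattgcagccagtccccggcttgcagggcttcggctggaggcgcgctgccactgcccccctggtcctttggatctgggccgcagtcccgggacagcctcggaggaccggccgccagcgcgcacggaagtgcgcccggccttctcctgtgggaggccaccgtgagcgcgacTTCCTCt
Itgb5 (chr16:33829415-33829664, plus strand): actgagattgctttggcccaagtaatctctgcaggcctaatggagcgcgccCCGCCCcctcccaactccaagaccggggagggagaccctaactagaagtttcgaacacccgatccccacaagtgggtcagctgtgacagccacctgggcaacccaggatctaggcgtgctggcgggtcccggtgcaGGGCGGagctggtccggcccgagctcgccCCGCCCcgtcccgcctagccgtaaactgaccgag
Itga1 (chr13:115101965-115102214, minus strand): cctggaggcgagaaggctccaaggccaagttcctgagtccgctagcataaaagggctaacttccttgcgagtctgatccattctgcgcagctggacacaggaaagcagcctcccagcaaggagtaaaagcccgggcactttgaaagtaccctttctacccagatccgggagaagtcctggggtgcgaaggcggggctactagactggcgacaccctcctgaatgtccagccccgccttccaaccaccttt
Itgb8 (chr12:119238277-119238526, minus strand): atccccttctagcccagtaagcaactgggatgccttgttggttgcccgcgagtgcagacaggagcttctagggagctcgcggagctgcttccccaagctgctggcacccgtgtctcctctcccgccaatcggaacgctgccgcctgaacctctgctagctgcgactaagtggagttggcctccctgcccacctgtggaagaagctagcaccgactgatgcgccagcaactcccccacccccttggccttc
Itgam (chr7:128062390-128062639, plus strand): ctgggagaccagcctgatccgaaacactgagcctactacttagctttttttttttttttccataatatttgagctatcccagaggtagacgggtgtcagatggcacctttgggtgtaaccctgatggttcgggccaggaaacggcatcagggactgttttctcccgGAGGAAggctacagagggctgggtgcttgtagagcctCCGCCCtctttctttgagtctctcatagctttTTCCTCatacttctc
The Itgav window held GAGGAA at 2 places and no GC box, whereas that of its partner Itgb5 held 3 GC boxes and no GAGGAA. The Itgam window held GAGGAA at 2 places and 1 GC box, and those of Itga1 and Itgb8 held none of the 5 motifs, although both held GGAA. Over the member windows, 14 of 28 (50%) held GAGGAA, against 23.3% of all 32851 windows in the RefSeq table, and 9 of 28 (32.1%) the GC box, against 32.7%. The Myc-type E-box was in 0 of 28 member windows and in 6.02% of all windows, TATAAA in 0 and in 12.4%, and the Sox motif in 2 (7.14%) and in 16.5%. These are matches of letters within the windows and show no binding.

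The arrays were similar in scale, with medians of 5.63 to 5.75 on the log2 scale, and the background, the 95th percentile on each array of 1435 odorant, pheromone and bitter taste receptor probe sets (below, receptor probe sets), lay between 5.45 and 5.66. Of the sympathetic neuron markers, 8 of 8 measured were detected. Markers of macrophages (11 of 12), endothelium (9 of 10), fibroblasts and pericytes (10 of 11), Schwann cells and glia (6 of 8) and skeletal muscle (6 of 9) were detected in the same samples. Of keratinocyte, T cell, B cell and NK cell markers, 0 of 5, 0 of 6, 0 of 3 and 0 of 4 measured were detected by limma as a mean over the tumours, and 1 of 6 neutrophil and 2 of 4 platelet markers. Tumour 5 nonetheless stood apart by keratinocyte markers: Krt14 was at 9.13 there, against 4.82 to 5.29 in the others, Perp at 8.79, against 5.63 to 6.30, and Dsp at 6.62, against 4.36 to 4.73. Tumour 6 stood apart by its low sympathetic neuron list (mean of centred markers -1.47, against -0.18 to 0.52 in the others), and tumours 4 and 6 by their Schwann cell and glia list (1.64 and 1.42, against -0.97 to 0.09). Some results that rest on these 3 tumours are given below with and without them.

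The first comparison asked which subunits and chains the tumours expressed above the array background. Beta1, the beta subunit shared by most matrix receptors, and the chains of 1 laminin network, Lama4, Lamb1 and Lamc1, were detected, and so were the receptors Itga6, Itgav and Itga1. Lama3 and Lamb3 of epidermal laminin and Itgb6 of epithelia were below background on average, whereas Itgb4, Itga3 and Itga6, which epithelia also carry, were detected. Itgae and Itgb7 of mucosal lymphocytes were below background. Of the 39 members, 26 (66.7%) were called above background by limma (Benjamini-Hochberg adjusted p under 0.05 over all genes), against 57.3% of all genes, and 9 were called below it, against 36.1%. The median difference from background was 0.79 for the members and 0.68 for all genes. The level set as background decides the count: it was 13 (33.3%, against 41.9% of all genes) with the 99th percentile of the receptor probe sets and 39 (against 90.9% of all genes) with their median. The members' share was thus above that of all genes at the 95th percentile and the median, and below it at the 99th. Probe sets differ in how strongly they bind, so the height of 1 gene against another is not read here.

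**Figure D1:**
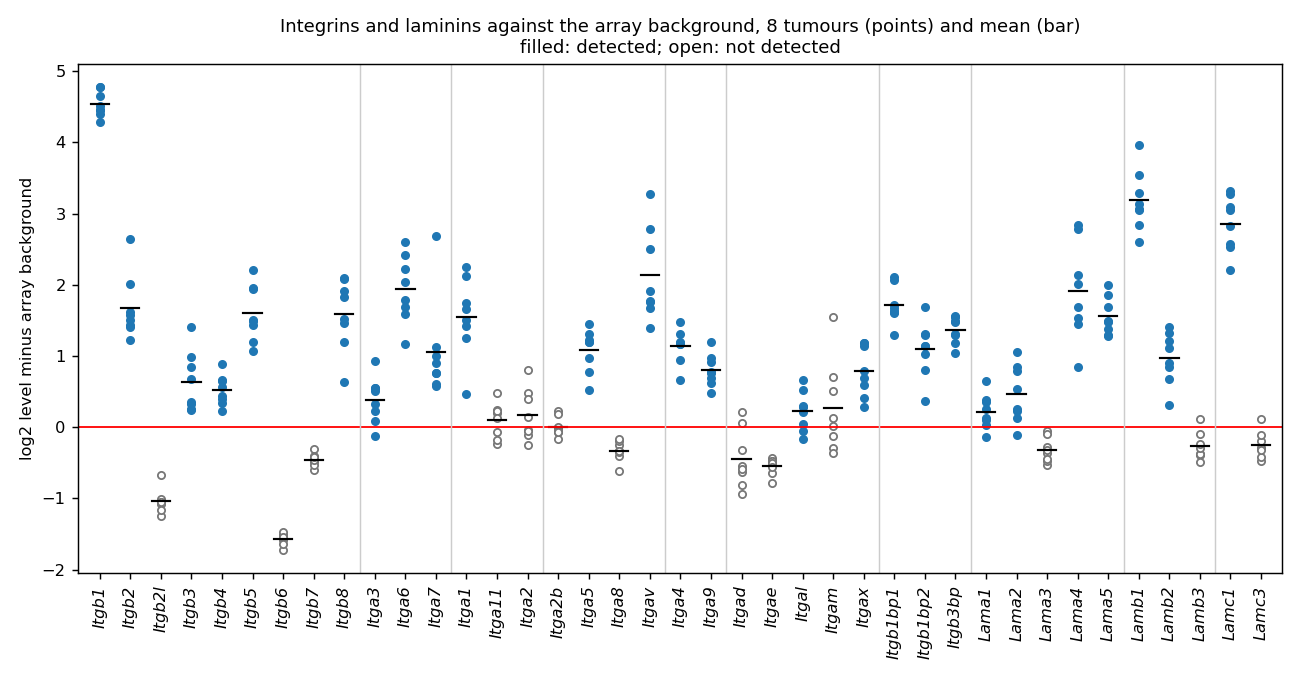
Log2 level above or below the array's own background (vertical axis) for the 39 members (horizontal axis, grouped by role, from beta subunits on the left to laminin gamma chains on the right). Points are the 8 tumours, bars are means and the red line is the background. Of the 39 members, 22 lay above it in all 8 tumours and 6 in none. No share of all genes is given for these counts, so they cannot be set against one. Heights are not comparable between genes.

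Among the beta subunits, 6 of 9 were detected. Itgb1 was at 9.94 in tumour 6, a median of 10.09 and 10.36 in tumour 8, on average 4.54 ± 0.07 (SE, n = 8; limma, adjusted p = 1.73e-14) above background. It had the smallest SD of the detected members (0.15). Itgb5, which pairs with alpha V to bind vitronectin, was at 6.70 in tumour 1, a median of 7.10 and 7.75 in tumour 6. Itgb8, another partner of alpha V that takes part in the release of active TGF-beta, was at 6.18 in tumour 6, a median of 7.31 and 7.72 in tumour 5. Itgb5 was thus highest in the tumour in which Itgb8 was lowest, and the next tumour for Itgb8 was tumour 8 at 6.77. Itgb3, the partner of alpha V in sprouting endothelium and of alpha IIb in platelets, was at 5.84 in tumour 7, a median of 6.13 and 7.07 in tumour 4, and tumour 6 followed at 6.53. Itgb4, which with alpha6 anchors epithelial and Schwann cells to laminin, was at 5.81 in tumour 7, a median of 6.09 and 6.53 in tumour 5, and averaged 0.47 above background without tumour 5 (limma, adjusted p = 7.53e-05). The leukocyte beta subunit Itgb2 was at 6.86 in tumour 1, a median of 7.12 and 8.09 in tumour 3, and tumour 3 stood above tumour 6 (7.56), the next highest. Itgb6 of epithelia, Itgb7 of lymphocytes and Itgb2l, a relative of Itgb2, were below background in all 8 tumours, at 4.02 ± 0.11, 5.13 ± 0.10 and 4.55 ± 0.19 (mean ± SD, n = 8).

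The 3 measured alpha subunits of laminin receptors were detected, and 2 of them differed widely between tumours. Itga6, the common alpha subunit of laminin receptors on vessels, glia and progenitors, was at 6.79 in tumour 1, a median of 7.52 and 8.14 in tumour 6, with tumour 4 close behind at 8.08. It averaged 1.94 ± 0.14 (SE, n = 8; limma, adjusted p = 4.92e-08) above background. Itga7, best known as the laminin receptor of muscle fibres and also made by glia, was at 6.21 in tumour 1, a median of 6.42 and 8.35 in tumour 4. The other 7 tumours lay between 6.21 and 6.67, so the SD of 0.71 rests on tumour 4 and was 0.16 without it. Itga7 remained above background without that tumour (0.82, limma, adjusted p = 1.71e-06). In tumour 4 the skeletal muscle list was at -0.68 and the glial list at 1.64; in tumour 6, where Itga7 was at 6.67, they were at 1.25 and 1.42. Their part in the level of Itga7 was not tested. Itga3, an epithelial and neuronal laminin receptor subunit, was close to background, at 5.50 in tumour 1, a median of 6.00 and 6.51 in tumour 7.

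Of the collagen receptor subunits, Itga1 was detected and Itga2 and Itga11 were not called. Itga1, found on vessels, pericytes and smooth muscle, was at 6.10 in tumour 1, a median of 7.19 and 7.79 in tumour 6, a 3.22-fold range on the linear scale. Tumour 1 stood below the rest, the next being tumour 3 at 6.87, and tumour 8 (7.71) was close to tumour 6. Itga2, which binds fibrillar collagen on platelets and epithelia, differed from background by 0.17 ± 0.11 (SE, n = 8; limma, adjusted p = 0.15) and was above it in 4 of 8 tumours. Itga11, a fibroblast subunit, differed by 0.10 ± 0.08 (limma, adjusted p = 0.242).

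Of the subunits that recognise the RGD sequence of fibronectin and vitronectin, Itgav and Itga5 were detected. Itgav, which takes several beta partners, was at 7.03 in tumour 1, a median of 7.44 and 8.81 in tumour 6, a 3.44-fold range. Tumour 4 (8.44) and tumour 3 (7.95) followed tumour 6, and the other 5 lay between 7.03 and 7.49. These levels come from 1 of 2 probe sets annotated to Itgav alone; the other was at 3.87 ± 0.15 (SD, n = 8), below background, and with both averaged Itgav was not called (0.21, limma, adjusted p = 0.105). Itga5, the main fibronectin receptor subunit, was at 6.15 in tumour 2, a median of 6.76 and 6.95 in tumour 5. Itga8 of mesenchyme was below background in all 8 tumours (5.26 ± 0.17), and Itga2b, which defines platelets and megakaryocytes, did not differ from it beyond its error (0.01 ± 0.06, SE, n = 8; limma, adjusted p = 0.915).

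Itga4 and Itga9, which bind VCAM-1, fibronectin and tenascin and are used by crest cells and leukocytes, varied little. Itga4 was at 6.30 in tumour 5, a median of 6.79 and 6.93 in tumour 3. Itga9 was at 6.12 in tumour 1, a median of 6.37 and 6.64 in tumour 3. Both were above background in all 8 tumours, and their SDs were 0.20 and 0.16.

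The alpha subunits of leukocytes were detected in part. Itgax, the alpha subunit of dendritic cells and some macrophages, was at 5.93 in tumour 5, a median of 6.33 and 6.77 in tumour 7, and was above background in all 8 tumours. Itgal, the lymphocyte and monocyte subunit that binds ICAM-1, was at 5.46 in tumour 1, a median of 5.81 and 6.16 in tumour 5, and its call was marginal (limma, adjusted p = 0.0318). Leaving out tumour 3, 4, 5, 6 or 7 ended it, at 0.16, 0.22, 0.19, 0.22 and 0.23 above background (limma, adjusted p = 0.0865, 0.0603, 0.0833, 0.0576 and 0.0526). Itgam, the myeloid subunit known as CD11b, was at 5.27 in tumour 2, a median of 5.68 and 6.995 in tumour 3. It was above background in 5 of 8 tumours, but its mean was not called (0.27 ± 0.20, SE, n = 8; limma, adjusted p = 0.213). In bulk tissue, fewer cells of a type and less RNA per cell cannot be told apart. Itgad and Itgae averaged 5.14 ± 0.42 and 5.04 ± 0.10 and were below background.

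The 3 integrin-binding proteins were detected. Itgb1bp1 (ICAP1), which holds the beta1 tail in an inactive state, was at 6.92 in tumour 1, a median of 7.30 and 7.61 in tumour 6. Its other probe set averaged 5.01 ± 0.14 (SD, n = 8), below background, and was highest in tumour 1 (5.22) and lowest in tumour 6 (4.71), the reverse of the first. Itgb1bp2 (melusin), a chaperone known from heart and skeletal muscle, was at 6.03 in tumour 4, a median of 6.68 and 7.26 in tumour 7, so that the tumour highest for Itga7 was the lowest for Itgb1bp2. Itgb3bp (CENP-R), named for its binding of the beta3 tail and also a part of the inner kinetochore, was at 6.62 in tumour 7, a median of 6.97 and 7.22 in tumour 4.

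The laminin chains split by network. The chains of vessel and nerve basement membranes were detected, while the chains of epidermal laminin (Lama3 at 5.27 ± 0.19 and Lamb3 at 5.32 ± 0.23) and Lamc3 (5.34 ± 0.21) were below background on average. Lama3, Lamb3, Itgb4 and Itgb6 were each highest in tumour 5, the tumour with high keratinocyte markers, and Lamb3 was above the background of that array (5.76 against 5.63). Itgb6 was below background there too (4.17, with tumour 4 at 4.13). Of the other subunits that epithelia carry, Itga6 was second lowest in tumour 5 (7.22) and Itga3 was highest in tumour 7 (6.51). Itga5, Itgb8, Itgal and Itgae were also highest in tumour 5. Without tumour 5 Lamb3 averaged -0.32 from background (limma, adjusted p = 0.000271). The part of keratinocytes in these levels was not tested. Lama4, the alpha chain of vessel, nerve and muscle laminin, was at 6.48 in tumour 1, a median of 7.43 and 8.50 in tumour 4, a 4.06-fold range, and tumour 6 followed tumour 4 at 8.33. Lama5, the other vascular alpha chain, ranged much less, at 6.87 in tumour 8, a median of 7.07 and 7.52 in tumour 4. Lama2, the alpha chain of muscle and Schwann cells, was at 5.52 in tumour 1, a median of 5.98 and 6.72 in tumour 4, with tumour 7 next at 6.42. Lama1, the alpha chain of early embryonic basement membranes, was at 5.52 in tumour 4, a median of 5.78 and 6.23 in tumour 7 and barely above background (0.22 ± 0.08, SE, n = 8; limma, adjusted p = 0.0234). Its call was lost without tumour 3, 7 or 8 (0.196, 0.156 and 0.20 above background; limma, adjusted p = 0.057, 0.0613 and 0.054).

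Lamb1 and Lamc1, the beta and gamma chains that most trimers share, averaged 3.19 ± 0.13 (SE, n = 8; limma, adjusted p = 9.8e-11) and 2.86 ± 0.12 (SE, n = 8; limma, adjusted p = 1.94e-10) above background. Lamb1 was at 8.24 in tumour 1, a median of 8.74 and 9.50 in tumour 6. Lamc1 was at 7.84 in tumour 5, a median of 8.48 and 8.98 in tumour 4, with tumour 6 next at 8.81. Both were thus high in tumour 6, and Lamc1 was lowest where Lamb2 was lowest. Lamb2, the beta chain of synapses, kidney and mature nerve, was at 5.95 in tumour 5, a median of 6.52 and 7.07 in tumour 4.

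**Figure D2:**
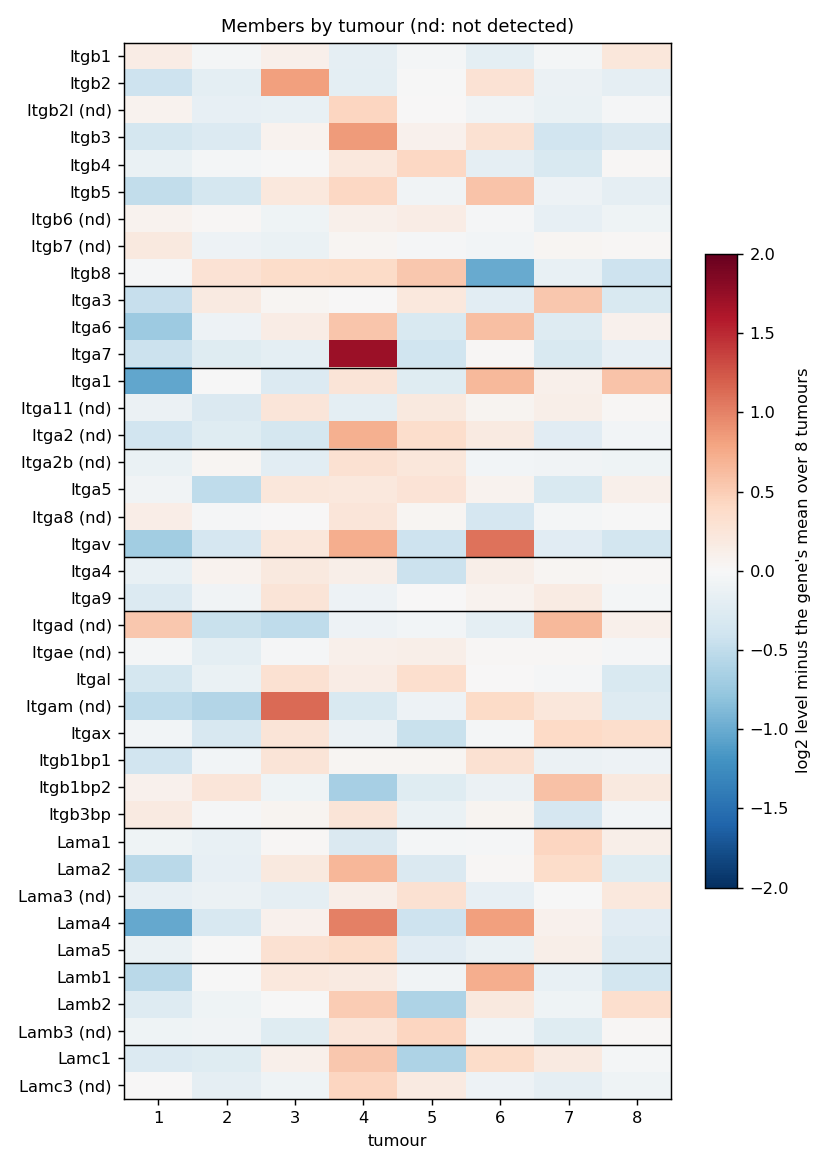
Log2 level of each of the 39 members (rows, grouped by role) in each of the 8 tumours (columns), minus the mean of the same gene over the tumours; red is above and blue below that mean, and nd marks genes that were not detected. Tumour 1 holds the lowest level of 13 of the 26 detected members (50%, against 14.4% of all detected genes). Tumours 4 and 6 hold the highest of 14 (53.8%, against 31.6%).

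The second comparison asked how much the members differed between tumours. Itga7, Lama4, Itgav, Itga1, Itgb8, Itga6 and Itgb3 had SDs of 0.71, 0.66, 0.62, 0.54, 0.51, 0.45 and 0.42, above the 99th percentile of the SDs of receptor probe sets (0.41). These are 7 of the 26 detected members (26.9%), against 14.6% of all 12699 detected genes, and the median SD was 0.36 for detected members and 0.23 for all detected genes. Itgb3 lay just inside the threshold and Lama2 (0.39) just outside. This count has no test, since there are no technical replicates. It was 4 without tumour 4 and 1 without tumours 4 and 6, when Lama4, Itgb8, Itgav and Itga6 had SDs of 0.41, 0.36, 0.30 and 0.32. The percentile, taken again over those 6 tumours, was 0.449, Itga1 (0.531) was the member still above it and Itgb2 (0.432) lay just below. No share of all detected genes is given for these recounts, so they cannot be set against one. Single tumours also decided some of these: the SD of Itga7 was 0.16 and that of Itgb3 0.27 without tumour 4, that of Itgb8 0.34 without tumour 6, and that of Itga1 0.36 without tumour 1. Itga6 fell to 0.37, 0.42 and 0.41 without tumour 1, 4 or 6, below the percentile taken again each time (0.424, 0.427 and 0.417).

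**Figure D3:**
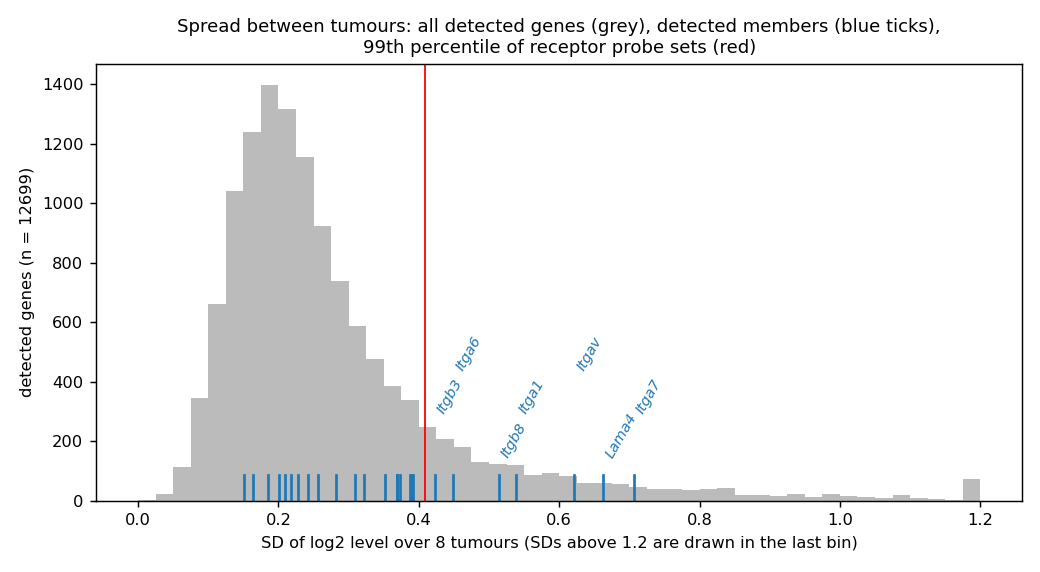
Number of detected genes (vertical axis, n = 12699) by the SD of their log2 level over the 8 tumours (horizontal axis, with SDs above 1.2 in the last bin). Blue ticks are the 26 detected members, and the 7 named ones lie to the right of the red line, the 99th percentile of the receptor probe sets (0.41).

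The tumours at the extremes were few. Tumour 1 had the lowest level of 13 of the 26 detected members (50%), although it had the lowest level of 14.4% of all detected genes, and it had the highest level of 0. These 13 include Lama4, Lama2, Lamb1, Itgav, Itga1, Itga6, Itga7, Itgb5 and Itgb2. Tumour 4 had the highest level of 8 members and tumour 6 that of 6, together 53.8% against 31.6% of all detected genes. The count for tumour 1 was also 13 with arrays quantile normalized again, with arrays centred on their median and without tumours 4 and 6. The share of all detected genes lowest in tumour 1 was 13.8%, 18.0% and 19.9% in these settings. Tumour 1 had the lowest summed log2 level of the macrophage markers (88.23, up to 101.9 in tumour 3), of the endothelial markers (64.67, up to 77.32 in tumour 4) and of the Schwann cell and glia markers (45.28, up to 65.95 in tumour 4). The sum of fibroblast and pericyte markers was lowest in tumour 4 (84.02) and highest in tumour 3 (95.74). By the mean of the centred detected markers of that list, tumour 1 (-0.48) was close to tumour 4 (-0.51). The markers not detected were Cd14, Tek, Lum, and S100b with Cdh19. The part of these cells in the levels of the members was not tested.

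**Figure D4:**
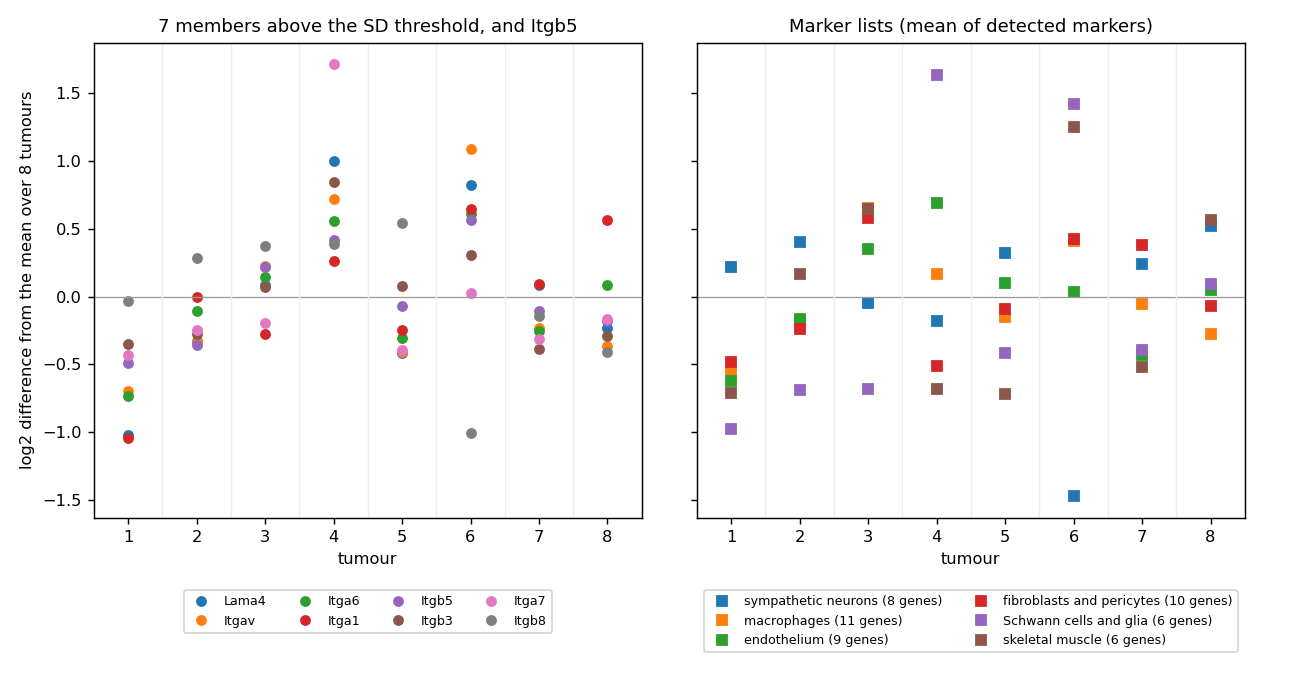
Left, log2 difference from the mean over the 8 tumours for the 7 members with an SD above 0.41 and for Itgb5; right, the mean of the centred detected markers of each cell type list in the same tumours, which have no order. Lama4, Itgav, Itga6 and Itgb5 are highest in tumours 4 and 6, as is the Schwann cell and glia list (1.64 and 1.42), and lowest in tumour 1, while Itgb8 is lowest in tumour 6.

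The third comparison asked whether subunits that form a receptor or a trimer, and members and the markers of the cells known to use them, rose and fell together over the tumours. By Pearson's r, alpha V and beta5 did so most closely, and the leukocyte subunit Itgb2 followed the macrophage markers. By Spearman's rho, Lama4 and Lamc1 did so most closely (0.952), and theirs was the 1 relation that passed. The calls counted next are by Pearson's r. Of 58 relations listed, 36 could be computed; 9 had a member that was not detected, 12 had levels in separate clusters and 1 had a chain that was not measured. Over the 36 relations, 2 passed at an adjusted p under 0.05 (exact permutation test of all 40320 pairings, two-sided, Benjamini-Hochberg), and 8 had an unadjusted p under 0.05. Itgb1 gave r of -0.393 with Itga1, -0.399 with Itga3, -0.151 with Itga4, 0.0278 with Itga5, -0.569 with Itga6 and -0.123 with Itga9. Itgb4 with Itga6 gave 0.0956, and Itgb2 gave 0.639 with Itgal and 0.249 with Itgax. None of these receptor pairs passed (exact permutation, adjusted p of 0.252 to 0.942). Without tumour 8, Itga1 with Itgb1 gave -0.909 and passed (exact permutation, adjusted p = 0.0135).

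Itgav and Itgb5 had a Pearson r of 0.961 over the 8 tumours (exact permutation p = 0.000372, adjusted p = 0.0134) and a Spearman rho of 0.833 (exact permutation p = 0.0154, adjusted p = 0.185). Without tumours 4 and 6, the tumours farthest from the median of Itgav, r was 0.893. In the tumours left, Itgav fell into separate clusters, with tumour 3 (7.95) apart from the rest (7.03 to 7.49). By the rule used here no correlation is computed there, so 0.893 carries no call. The call was lost without tumour 1 (r = 0.953, exact permutation, adjusted p = 0.0863) and without tumour 6 (r = 0.942, adjusted p = 0.116), and without tumour 3 the levels fell into separate clusters, so that no call could be made. The other beta partners of alpha V gave r of 0.791 for Itgb3 (exact permutation p = 0.02, adjusted p = 0.12), -0.374 for Itgb8 (p = 0.361, adjusted p = 0.541) and -0.71 for Itgb1 (p = 0.0502, adjusted p = 0.201), and none passed. Without tumours 4 and 6 these were 0.527, 0.293 and -0.108, values that carry no call because of the same separate clusters. Without either alone that of Itgb1 was -0.625 (tumour 4) and -0.58 (tumour 6). The value for Itgb8 was 0.419 without tumour 6 alone and -0.614 without tumour 4 alone, so its sign rests on tumour 6.

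Itgb2 followed the macrophage list with r of 0.892 (exact permutation p = 0.00169, adjusted p = 0.0304; rho of 0.714, p = 0.0576, adjusted p = 0.259). This rests largely on tumours 3 and 6, where 11 detected macrophage markers averaged 0.65 and 0.41 above their means, and without both r was 0.602. The call was lost without tumour 2 (r = 0.888, exact permutation, adjusted p = 0.0641), without tumour 3 (0.826, adjusted p = 0.183) and without tumour 7 (0.893, adjusted p = 0.0514), and without tumour 1 or 6 the levels fell into separate clusters, so that the call was made without 3 of the 8 tumours only (4, 5 and 8). Itgal gave r of 0.685 (exact permutation p = 0.0603, adjusted p = 0.217) and Itgax 0.207 (p = 0.614, adjusted p = 0.743) with the same list. Itgax was highest in tumours 7 and 8 and not in tumour 3. When genes below the detection call were let in, Itgam and Itgb2, the subunits of the complement receptor CR3, had r of 0.941 (exact permutation p = 0.00136, adjusted p = 0.0242) and rho of 0.905 (p = 0.00456, adjusted p = 0.0981), and r was 0.634 without tumours 3 and 6.

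None of the 9 relations between laminin chains that could be computed passed by Pearson's r, and 8 were positive. Lama4 and Lamc1 had r of 0.86 (exact permutation p = 0.00685, adjusted p = 0.081), and their rho of 0.952 passed (p = 0.00114, adjusted p = 0.0411). Without tumours 1 and 4, r was 0.852. Both chains were highest in tumours 4 and 6. No value without that pair is given here, so how far the relation rests on it is not shown. Lama4 and Lamb1 had r of 0.805 (exact permutation p = 0.0164, adjusted p = 0.118; rho of 0.738, p = 0.0458, adjusted p = 0.236), and 0.845 without tumours 1 and 4. Lamb2 and Lamc1 had r of 0.847 (exact permutation p = 0.009, adjusted p = 0.081; rho of 0.833, p = 0.0154, adjusted p = 0.185), and 0.483 without tumours 4 and 5. Lama5, in contrast, gave r of 0.316 with Lamb1 and 0.397 with Lamb2 (exact permutation p = 0.451 and 0.334, adjusted p = 0.63 and 0.539), and Lama1 with Lamb1 gave -0.203 (p = 0.62, adjusted p = 0.743). Lamb1 and Lamc1, the chains that most trimers share, gave r of 0.56 (exact permutation p = 0.144, adjusted p = 0.346). Lama2 gave r of 0.49 with Lamb1 and 0.579 with Lamb2 (exact permutation p = 0.218 and 0.13, adjusted p = 0.435 and 0.346).

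The endothelial list, of 9 detected markers, gave r of 0.775 with Itga6 (exact permutation p = 0.0255, adjusted p = 0.131) and 0.701 with Lama4 (p = 0.0482, adjusted p = 0.201). Without tumours 1 and 4 these were 0.40 and 0.0443, so both rest on those tumours. Fibroblast and pericyte markers gave r of 0.413 with Itgb5, 0.226 with Lama2 and 0.51 with Lamb1 (exact permutation p = 0.305, 0.585 and 0.198, adjusted p = 0.539, 0.743 and 0.435), and 0.32 with Itga1 (p = 0.455, adjusted p = 0.63). The first 3 values depended on which tumours were included: without tumour 4 they were 0.827, 0.891 and 0.702 (exact permutation, adjusted p = 0.0962, 0.0813 and 0.204), and without tumours 3 and 6 they were -0.0955, 0.139 and -0.0263. Glial markers fell into separate clusters, with tumours 4 and 6 apart, and no correlation is given. Of the 6 members set against them, Itga6 and Lama4 were highest in these tumours, Lama2 was highest in tumour 4 (6.72) but lower in tumour 6 (6.08) than in tumours 7 and 3, and Itga4 was at 6.85 in both, with tumour 3 at 6.93. Itgb4 was second in tumour 4 (6.32) and second lowest in tumour 6 (5.93), and Itgb8 was second in tumour 4 (7.57) and lowest in tumour 6 (6.18).

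**Figure D5:**
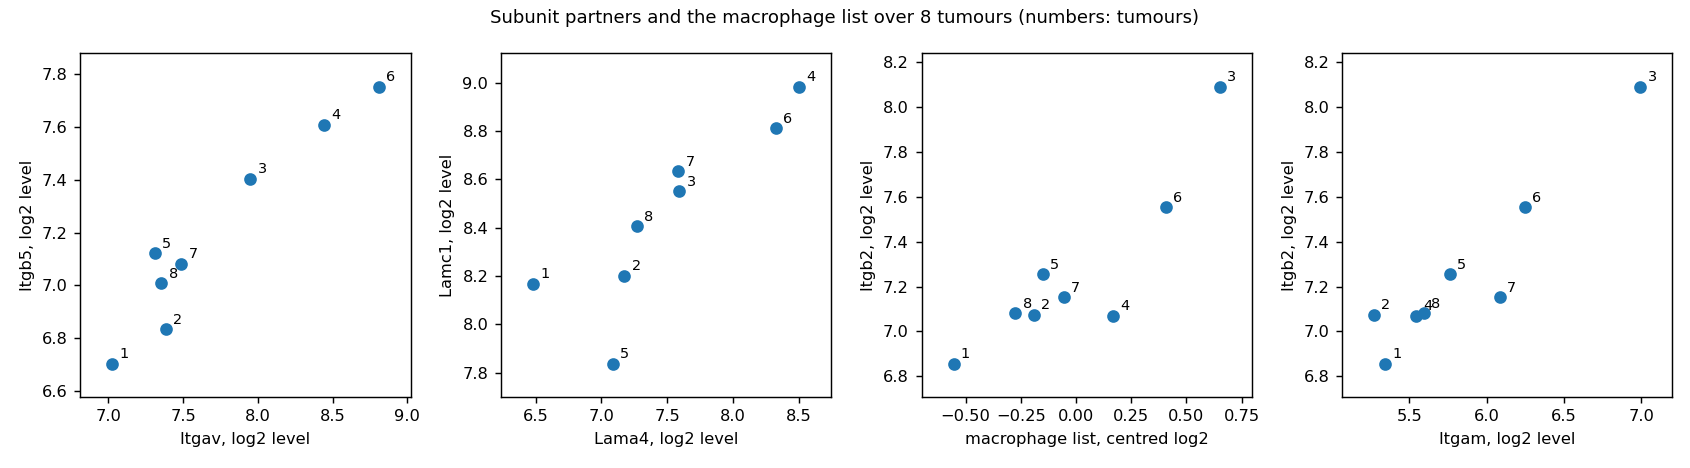
Each panel plots log2 levels of 8 tumours, numbered: Itgb5 against Itgav, Lamc1 against Lama4, Itgb2 against the mean of 11 centred macrophage markers, and Itgb2 against Itgam. Tumours 4 and 6 are at the upper right of the first pair of panels, with r of 0.961 and 0.86, and tumour 3 is at the upper right of the other pair, with r of 0.892 and 0.941.

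Of the genes listed as linking integrins to the cytoskeleton and laminins to the rest of the matrix, those measured were detected almost throughout. The list held 48 genes, and Ptk2, Ilk, Lims2, Rap1a and Spp1 were not measured. Of 43 measured genes, 41 (95.3%) were above background by limma, against 57.3% of all genes. They were 16 of 17 activators and adaptors, 7 of 7 basement membrane partners, 10 of 11 other ligands, 6 of 6 other laminin receptors and integrin partners and 2 of 2 netrins. The exceptions were Fermt1, the kindlin of epithelia (4.37 ± 0.28, SD, n = 8), and Icam2, an endothelial ligand of Itgal (4.98 ± 0.19). Against the 99th percentile of the receptor probe sets the count was 27 (62.8%, against 41.9% of all genes). The list was chosen with earlier results of these data known, so neither contrast is a test of it.

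The partner genes with the largest SDs did not share 1 pattern. Nid1, the nidogen that joins laminin to type IV collagen, was at 6.79 in tumour 1, a median of 8.18 and 9.57 in tumour 4, the tumours lowest and highest for Lama4. Cd81, a tetraspanin that associates with integrins, was likewise at 8.62 in tumour 1, a median of 10.36 and 11.65 in tumour 4. Tnc, tenascin C, a ligand of alpha9 and alpha V, was at 6.95 in tumour 2, a median of 8.31 and 9.62 in tumour 3. Tln2, the talin abundant in neurons and muscle, was lowest in tumour 6 (7.16) and highest in tumour 8 (9.76), with a median of 8.71. The parvins link the ILK complex to actin: Parva ran from 8.76 in tumour 8 to 11.05 in tumour 4 (median 9.86) and Parvb from 5.96 in tumour 1 to 8.15 in tumour 8 (median 6.35). Tumour 8 was therefore lowest for Parva and highest for Parvb. In all, 16 of the 41 detected partner genes had an SD above 0.41, against 14.6% of all detected genes.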

How the data were processed

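RNA of 8 tumours was measured on 1 Affymetrix array each. The deposited values are log2 levels per probe set, which the authors made by RMA, with Partek 6.5 also named in the submitters' processing notes; the step done by each tool and the genome build were not given in the sources used. The scale was read from the values, 2.07 to 13.61. Of 41345 probe sets, 23521 have 1 gene symbol, 1814 several and 16010 none in the platform annotation, and those with several name no gene here. Arrays hold no counts, so their number limits precision.

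Detection was tested with limma 3.58.1 (R 4.3.3; trend, robust prior) on the level minus array background over all 22180 genes, and was tested on simulated data. Relations were computed in Python 3.11.15 (scipy 1.17.1, numpy 2.4.6, pandas 2.3.3) and drawn in matplotlib 3.10.9. A relation was computed where both sides were detected and no gap exceeded 0.5 of the range of either; marker lists entered as the mean of detected, centred markers. Named were all members, with lowest, median and highest tumour for the 25 detected members with the largest SD, and the 6 partner genes with the largest SD or not detected; values of Itgb1, Itgam and Itga2 beyond this were chosen after they were seen. Members and lists were chosen with earlier results of these data known. Alternatives were averaged probe sets, other scalings, other background and noise levels, another limma prior, Spearman's rho, no detection filter and leaving out each tumour; leaving out tumours 4 and 6 together and the counts of extreme tumours were added after seeing the data.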

Additional observations from a re-analysis of the deposited data

Results flagged for a closer look

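Of 51 series of 8 values examined (39 members, 6 partner genes and 6 marker lists), 4 had an extreme tumour whose gap to the next exceeded Dixon's 95% limit. Chance gives about 1 in 20 for independent series. The 6 partner genes were picked by their SDs in these same tumours, and all series share the tumours. That rate is therefore no test of the 4. Itga7 was at 8.35 in tumour 4, against 6.21 to 6.67 in the other 7. Itgb2l, which was not detected, was at 4.98 in tumour 4, against 4.38 to 4.62. Parvb was at 8.15 in tumour 8, against 5.96 to 6.85. The sympathetic neuron list was at -1.47 in tumour 6, against -0.18 to 0.52.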

How the results depend on the processing

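Without each tumour in turn, 24 to 26 members were detected, 41 of the partner genes in every case, 4 to 9 members had an SD above the noise level, and 0 to 4 relations passed. Some counts of genes moved by more than 1.5 times under other settings. They were the 13 members and 27 partner genes detected against the 99th percentile of receptor probe sets, and the 16 members above the 95th percentile of receptor SDs. The others were the 4 members above noise without tumour 4 and the 1 without tumours 4 and 6. For the recounts by SD no share of all detected genes is given, so they cannot be set against one. The relations past the threshold, 2 in all, became 0 with averaged probe sets. There Itgav was not detected, and the macrophage list with Itgb2 had the same r but an adjusted p of 0.054 (exact permutation test). The count became 4 with arrays quantile normalized again, 6 with arrays centred and 1 by Spearman's rho. Without tumours 4 and 6 it was 0, with 6 tumours left, where both relations fell into separate clusters and were not computed. The cause of the other changes was not tested. The background level turned the sign of single members. Against its 99th percentile the log2 differences were Itga11 -0.90, Itga2 -0.83, Itga2b -0.999, Itga3 -0.62, Itga9 -0.20, Itgal -0.78, Itgam -0.74, Itgax -0.22, Itgb3 -0.36, Itgb4 -0.49, Lama1 -0.79, Lama2 -0.54 and Lamb2 -0.028. Against its median they were Itga8 1.79, Itgad 1.68, Itgae 1.58, Itgb2l 1.08, Itgb6 0.56, Itgb7 1.66, Lama3 1.80, Lamb3 1.86 and Lamc3 1.88. Of the other values of single members and relations under the alternatives, 545 levels, 438 SDs and 427 correlations kept their direction and side of the threshold, or had no call on either side. No paired analysis was possible because the tumours form 1 group.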
